A study of Mus musculus with 2 samples.

Results

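Library 1 of this study, made by chromatin immunoprecipitation and sequencing (ChIP-seq), was examined inside the longest genes of the mouse. The series addresses functions of histone H3.2 in the eye. Both of its libraries came from heads of E10.5 mouse embryos that had been snap-frozen, and both used a GFP antibody (GFP is green fluorescent protein). Their labels are the same apart from the name. The labels name no strain, no genotype, no protein that carried GFP and no control tissue, so they do not say whether library 2 is a replicate of library 1 or a control, and no contrast between conditions could be made. The peaks were those whose summit, the position of highest read pileup within a peak, lay inside the body of an autosomal protein-coding gene of at least 500 kb in the RefSeq annotation of build mm10 (GRCm38.p6). This gave 22360 of the 584724 peaks of library 1 (3.82%). They lay in 216 of 20665 autosomal protein-coding genes, which were 502 kb to 2271 kb long with a median of 735 kb. Some of these genes overlap, so they form 213 separate stretches of 180.1 Mb in all, or 7.50% of the autosomes. Here and in all autosome-wide values, each autosome was measured from its first to its last library 1 peak. Every interval given here is a 95% interval that covers counting error only, and no test was made, because all of these peaks come from 1 library.

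Very long genes consist almost wholly of introns. Many encode proteins of nerve cell surfaces: adhesion molecules that join the sides of a synapse, receptors that steer axons, glutamate receptors and ion channels. Others encode transcription regulators with broad roles in the embryo. Several very long genes are known in human cells as common fragile sites, where chromosomes break when DNA replication is slowed, and H3.2 is a histone that is made and placed into chromatin during DNA replication.

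The starts of long genes carried the sequences that can be shown directly. RefSeq gives promoter windows, from 250 bases before to 50 bases after a start of transcription, for 169 of the 216 genes, and these hold 271 windows because some genes have several starts. A library 1 summit lay inside 80 of the 271 windows (29.5%, 24.2 to 35.3), in 70 genes. The same was true of 22.8% of the 20085 windows of all autosomal protein-coding genes, and of 22.7% (22.2 to 23.3) of the 19814 windows of shorter genes. These intervals treat windows as independent, although some windows of long genes share a peak. The 6 windows whose summit had the highest fold enrichment are printed here as the 250 bases before the start, 5′ to 3′ on the strand of the gene, from RefSeq GRCm38.p6. Capitals mark the bases that lie within the called peak.
Thsd4: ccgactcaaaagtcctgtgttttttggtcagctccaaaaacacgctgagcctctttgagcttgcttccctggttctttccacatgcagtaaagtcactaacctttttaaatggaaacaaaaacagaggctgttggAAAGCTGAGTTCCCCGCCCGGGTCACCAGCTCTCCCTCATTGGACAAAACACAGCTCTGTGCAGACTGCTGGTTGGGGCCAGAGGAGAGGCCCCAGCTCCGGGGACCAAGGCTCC
Marchf1: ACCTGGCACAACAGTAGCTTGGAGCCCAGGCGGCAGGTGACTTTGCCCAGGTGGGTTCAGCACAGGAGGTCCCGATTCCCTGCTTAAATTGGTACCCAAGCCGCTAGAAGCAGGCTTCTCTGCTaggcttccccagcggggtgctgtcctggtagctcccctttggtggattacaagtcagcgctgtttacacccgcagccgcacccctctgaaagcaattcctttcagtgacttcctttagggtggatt
Cntnap5b: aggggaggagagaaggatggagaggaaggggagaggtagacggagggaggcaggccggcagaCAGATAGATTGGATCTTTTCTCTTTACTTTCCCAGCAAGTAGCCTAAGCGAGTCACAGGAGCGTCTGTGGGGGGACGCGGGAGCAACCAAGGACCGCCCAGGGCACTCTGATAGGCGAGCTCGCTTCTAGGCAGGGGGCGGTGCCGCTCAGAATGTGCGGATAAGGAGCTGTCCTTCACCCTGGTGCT
Egfem1: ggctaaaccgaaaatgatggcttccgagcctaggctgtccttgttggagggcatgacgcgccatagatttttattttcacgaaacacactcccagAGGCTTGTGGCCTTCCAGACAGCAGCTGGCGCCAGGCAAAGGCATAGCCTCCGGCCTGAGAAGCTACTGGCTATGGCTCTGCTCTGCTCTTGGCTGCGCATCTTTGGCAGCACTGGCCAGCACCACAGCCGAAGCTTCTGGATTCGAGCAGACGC
Agbl1: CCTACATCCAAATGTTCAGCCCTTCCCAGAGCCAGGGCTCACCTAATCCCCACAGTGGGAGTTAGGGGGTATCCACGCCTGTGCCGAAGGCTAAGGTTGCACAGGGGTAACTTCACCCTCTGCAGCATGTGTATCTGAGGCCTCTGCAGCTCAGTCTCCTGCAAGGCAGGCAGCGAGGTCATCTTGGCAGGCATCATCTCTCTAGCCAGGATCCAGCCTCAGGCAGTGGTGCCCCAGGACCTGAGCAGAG
Syne1: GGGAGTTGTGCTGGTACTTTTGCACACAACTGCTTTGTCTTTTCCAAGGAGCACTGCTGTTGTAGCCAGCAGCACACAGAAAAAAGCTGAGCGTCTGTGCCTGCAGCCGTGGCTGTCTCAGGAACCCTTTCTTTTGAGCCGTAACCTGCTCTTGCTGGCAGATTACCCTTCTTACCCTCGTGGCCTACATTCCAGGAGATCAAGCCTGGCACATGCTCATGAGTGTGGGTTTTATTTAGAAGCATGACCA

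These 6 windows differed in their make-up. The start in Thsd4, a gene for a secreted protein with thrombospondin repeats, lies 11.1 kb into the gene (chr9:60511036-60511285, minus strand), and its summit was 8 bases before that start with 23 reads piled up (14.6 to 34.5) and a fold of 6.46. The window of Marchf1, a membrane-bound ubiquitin ligase gene (chr8:65618275-65618524, plus strand), had a fold of 6.19 with the summit 230.0 bases before the start. In the other 4 windows the summit had 20 reads (12.2 to 30.9) and a fold of 5.66. They belong to Cntnap5b, a neurexin relative (chr1:99772151-99772400, plus), Egfem1 (chr3:29081537-29081786, plus), Agbl1, a gene related to carboxypeptidases (chr7:76229637-76229886, plus) and Syne1, which encodes a large protein of the nuclear envelope (chr10:5069064-5069313, minus). The Syne1 start lies 482 kb into the gene. The GC content of the 250 bases was lowest in Syne1, at 50.8%, and highest in Cntnap5b, at 60%. The number of CG pairs was 12 in Cntnap5b and 11 in Egfem1, against 3 in Agbl1 and 4 in Syne1.

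Over all 300 bases, the 80 windows of long genes with a summit had a median GC content of 62.7% and a median of 17.5 CG pairs, and the 191 windows without one had 53.3% and 9. In shorter genes the medians were 60.7% and 17 with a summit, and 55.0% and 12 without. The GC box GGGCGG, searched on both strands, was present in 43 of the 80 windows with a summit (53.8%) and in 68 of the 191 without (35.6%), beside 47.0% of all 20085 windows. TATAAA was present in 7 of the 80 (8.75%) and 18 of the 191 (9.42%), beside 12.7% of all windows, and CCAAT in 23 (28.8%) and 67 (35.1%), beside 38.1%. GGGCGG and CCAAT read on opposite strands can share bases. Such matches describe letters and show no binding. Some windows overlap, so the 80 windows hold 77 different peaks. The folds of these ran from 2.47 to 6.46 with a median of 3.77, and 29 of 77 (37.7%) reached a −log10 q of 5, beside 41.0% of all library 1 peaks.

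Across their whole bodies, long genes held fewer library 1 peaks per Mb than any other kind of territory examined on the autosomes. Genes of at least 500 kb had 124 peaks per Mb (123 to 126). Genes of 100 to 500 kb had 292 (291 to 294), genes of 20 to 100 kb had 408 (406 to 410.3) and genes under 20 kb had 544 (539 to 549), each stretch being counted once with its longest gene. All shorter genes together had 364 (362 to 365), and the density in long genes was 0.341 of theirs (0.337 to 0.346). Sequence outside protein-coding genes had 184 (184 to 185), so long genes also lay below it, at a ratio of 0.673 (0.664 to 0.682). Peaks covered 2.87% of the long genes and 9.81% of the shorter genes, with mean peak widths of 231 bp and 270 bp.

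**Figure D1:**
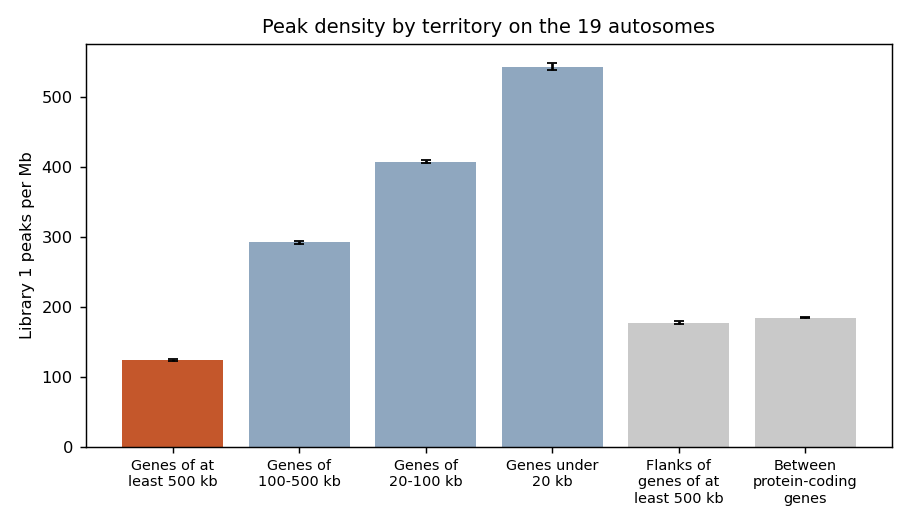
Library 1 peaks per Mb (bars, from 0) in 6 kinds of territory on the 19 autosomes, with 95% Poisson intervals as whiskers. Genes of at least 500 kb stand at 124 per Mb, the lowest bar, and density is higher in each shorter class of gene, up to 544 per Mb under 20 kb.

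The low density was seen on every autosome. The ratio of long genes to the rest of the same chromosome ran from 0.276 on chromosome 15 to 0.888 on chromosome 18. On chromosome 15, 7 long genes had 71.8 peaks per Mb and the rest had 261. On chromosome 18, 5 long genes had 185 and the rest had 208. Of these 5, Gm37013, Gm38666 and Gm38667 share a single stretch, and the others were Arhgap26 at 359 and Dcc at 32.8. Weighted over the 19 autosomes, long genes had 0.506 of the peaks that the rest of their own chromosomes would give. Of the 216 genes, 34 were denser than the rest of their chromosome and 182 were not. Against the autosome-wide density of 240.0 peaks per Mb, 31 of 216 long genes (14.4%) were denser, beside 64.8% of all autosomal protein-coding genes and 51.1% of the 2097 genes of 100 to 500 kb.

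The density inside a long gene was also below that of its own surroundings. Each gene was set against flanks that together were as long as the gene, with any part inside another long gene left out. The pooled density was 124 peaks per Mb inside and 178 (176 to 180) in the flanks, a ratio of 0.699 (0.687 to 0.711). Where flanks held no protein-coding gene the density was 141 (139 to 143), and where they held shorter genes it was 290.0 (285 to 295). The body was denser than the flanks in 35 of 216 long genes and less dense in 181, with a median ratio of 0.645. With flanks made the same way, outside other genes of their own length class, 49.5% of 2084 genes of 100 to 500 kb were denser than theirs, with a median ratio of 1. The ratio of body to flanks was lowest in Pcdh15, a protocadherin gene of inner ear and retina (0.237), and highest in Tenm4, a teneurin gene (2.70), and Wwox, which encodes an oxidoreductase (2.68). These 3 were picked by this ratio after the values were seen.

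The densities of body and flanks still went together. Over the 216 genes, Spearman's rho between them was 0.83, and that between body density and the number of other protein-coding genes within 1000 kb of either end, not counting those that overlap it, was 0.58. The genes share 1 library, and some share a neighbourhood, so these are descriptions. The 57 long genes with the fewest neighbours (0 to 5) had 65.4 peaks per Mb (63.3 to 67.5), and the 51 with the most (17 to 43) had 214 (209.8 to 219). Base composition, repeats and the share of sequence to which reads map were not analysed here, and their part in any density was not tested.

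The very longest genes had the lowest densities of the 4 length classes. The 54 longest genes, from 1018 kb up, had 83.1 peaks per Mb (81.0 to 85.2), and the other classes of 54 genes had 146 (142 to 151) at 502 to 574 kb, 167 (163 to 172) at 575 to 734 kb and 146 (143 to 149.6) at 735 to 1004 kb. The median gene had 58.6 in the longest class, against 125, 131 and 94.4 in these classes in the same order, so the pooled value of the class from 735 kb lies well above its median gene. Spearman's rho between length and density was −0.30. Of the 10 longest genes, 9 had between 44.0 and 74.3 peaks per Mb. Ptprd, a receptor phosphatase gene that organises synapses, spans chromosome 4, 75941237 to 78211742, and had 105 peaks, or 46.2 per Mb (37.8 to 56.0). Cntnap2, a neurexin relative, had 118 peaks (52.6 per Mb, 43.6 to 63.0). Lsamp, which encodes an adhesion protein of the limbic system, had 109 (49.6), and Lrp1b, a giant lipoprotein receptor gene, had 106 (51.5). Macrod2, an ADP-ribosylhydrolase gene, had 106 (53.1), and Dlg2, a scaffold of the postsynaptic density, had 112 (56.8). These 6 genes, all of nearly 2 Mb or more, had intervals that overlapped one another. Csmd1, Nrxn3 and Fhit followed with 74.3, 44.0 and 67.6 per Mb. The exception was Ctnna3, a catenin gene, with 166 peaks and 105 per Mb (90.1 to 123).

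**Figure D2:**
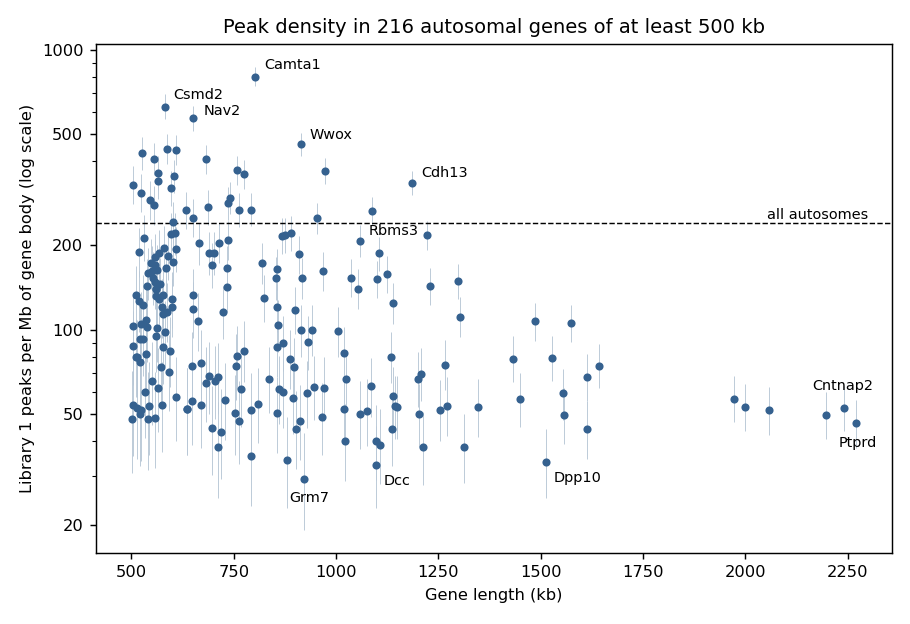
Library 1 peaks per Mb of gene body (log scale) against gene length in kb for the 216 genes, with 95% Poisson intervals. The dashed line is the density of all autosomes, 240.0 per Mb, and 31 genes lie above it. Densities run from 29.3 in Grm7 to 803 in Camta1.

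Single genes spanned a wide range, from 29.3 to 803 peaks per Mb, a factor of 27.4, with a median of 99.6 and quartiles of 56.9 and 173. The densest was Camta1, which encodes a calmodulin-binding transcription activator and lies on chromosome 4, 151059523 to 151861768. It held 644 peaks, or 803 per Mb (742 to 867). Csmd2, a gene for a large transmembrane protein of the complement-control type (chromosome 4, 127986505 to 128567660), had 364 peaks and 626 per Mb (564 to 694). Both genes lie on the same chromosome, as does sparse Ptprd. Nav2, a neuron navigator gene on chromosome 7, had 569.9 per Mb (513 to 631), Wwox on chromosome 8 had 460.0 (417 to 506), the guidance ligand gene Slit3 on chromosome 11 had 443 (391 to 500.1) and the calcium channel gene Cacna1c on chromosome 6 had 439 (388 to 495). The density of Camta1 was close to that of its flanks, 820.2 per Mb, whereas the flanks of Wwox had 172 per Mb and those of Nav2 had 296.

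The 6 sparsest genes had between 29.3 and 38.0 peaks per Mb. Grm7, a metabotropic glutamate receptor gene (chromosome 6, 110645349 to 111567230), held 27 peaks, or 29.3 per Mb (19.3 to 42.6). Dcc, the netrin receptor gene on chromosome 18, held 36 (32.8 per Mb, 23.0 to 45.4). Dpp10, which encodes a partner of potassium channels, held 51 (33.7, 25.1 to 44.3) although its body spans 1.51 Mb. The protocadherin gene Pcdh9 had 34.1 per Mb (23.0 to 48.7), the synaptic adhesion gene Lrrtm4 had 35.4 (23.5 to 51.1) and Csmd3 had 38.0 (27.8 to 50.6). The intervals of these 6 overlap, so their order is not resolved, and the flanks of each had more peaks per Mb than the gene, from 49.9 beside Grm7 to 86.5 beside Dpp10.

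Genes grouped by role differed in where their densities lay, and each group spanned a broad range. The 13 role lists were drawn up from general knowledge and share members, 144 of the 216 genes being in at least 1 list. The lists also differ in gene length: the 16 transcription regulators span 11.4 Mb and the 17 synaptic adhesion genes 19.5 Mb. Density was lower in the longest genes and in those with few neighbours, and the part of either in the differences between lists was not tested. Transcription regulators were densest: their 16 long genes had a median of 165 peaks per Mb, and 12 of 16 lay above the median of all 216 genes (99.6). Camta1 led the group at 803 and Foxp2, a forkhead gene of brain development, was lowest at 48.1 (31.4 to 70.5). Next below Camta1 were Zfhx3, a homeobox and zinc finger gene (407), Foxp1 (321), the orphan nuclear receptor gene Rora (283) and Sox5 (251), named after their values were seen. Receptor-type tyrosine phosphatases had a median of 156, with 4 of 6 genes above the overall median, from Ptprd at 46.2 to Ptprm at 273 (236 to 315). Ion channels and their partners had a median of 109.9 with 9 of 16 above, from Dpp10 at 33.7 to Cacna1c at 439. Scaffolds and presynaptic proteins had a median of 103 with 10 of 18 above, from Sgcd, a sarcoglycan gene, at 52.0 to Dlgap2 at 372 (330.0 to 418). The lowest member of that list other than sarcoglycan genes was Dlg2 at 56.8.

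Adhesion and guidance genes lay lower. The 17 long genes in the synaptic adhesion list had a median of 52.6 per Mb, the lowest of the lists, and 5 of 17 exceeded the overall median. Those 5, named after their values were seen, were Tenm4 (296), Clstn2 (183), Tenm3 (149), Tenm2 (143) and Ptprt (125). Lrrc4c, a netrin-G ligand gene, was lowest in the list at 38.1 (28.3 to 50.2). Lrrtm4, with 35.4 per Mb, was not in this list. Glutamate receptors had a median of 59.1 with 1 of 6 above, Grid1 at 269 (233 to 308). Cadherins and catenins had a median of 59.2 with 3 of 9 above, from Pcdh9 at 34.1 to Cdh13 at 335 (303 to 369.7). Genes of axon guidance and neuronal migration had a median of 64.6 with 3 of 12 above, from Dcc at 32.8 to Slit3 at 443. Immunoglobulin-domain adhesion genes had a median of 74.2 with 4 of 11 above, from Cntn4 at 40.1 to Sdk1 at 369.6 (332 to 409.8).

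The remaining 4 lists had medians from 63.7 to 95.1. Genes of proteoglycans, matrix and glycosylation had a median of 89.2 with 7 of 16 above, from Csmd3 at 38.0 to Csmd2 at 626. This list and its median include the Csmd genes, which encode transmembrane proteins of the complement-control type and do not have the named roles. Its other members ran from Mgat4c at 38.0 to St6galnac3 at 427. Phosphodiesterases and kinases had a median of 95.1 with 2 of 6 above, from Dgkb at 50.4 to Mast4 at 242. RNA-binding proteins had a median of 82.8 with 1 of 4 above, from Khdrbs2 at 60.1 to Rbms3 at 208. The mouse counterparts of common fragile site genes had a median of 63.7 with 4 of 12 above. Among these, Wwox was highest at 460.0, Fhit had 67.6 (55.5 to 81.6) and Lrp1b was lowest at 51.5. The 72 long genes in no list had a median of 121, and 45 lay above the overall median.

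**Figure D3:**
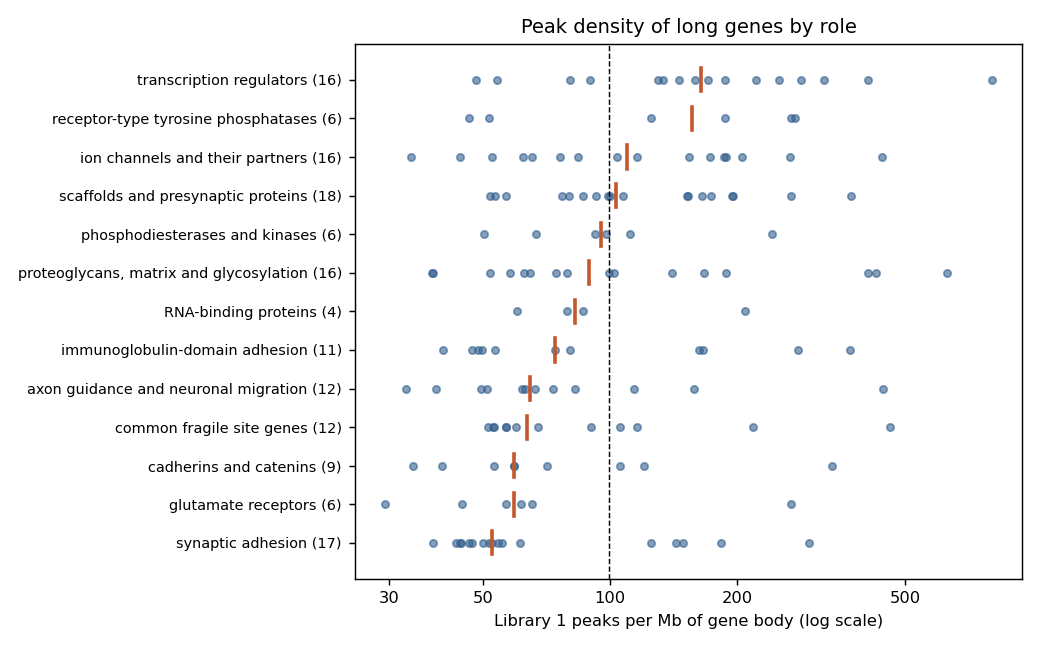
Library 1 peaks per Mb (log scale) of single long genes (points) by role list, with the number of genes in brackets, the list median (red bar) and the median of all 216 genes (dashed line, 99.6). A gene may stand in several lists. Transcription regulators have the highest list median, 165, and synaptic adhesion genes the lowest, 52.6.

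Related genes were often far apart. These families were chosen after their values were seen. The 3 Csmd genes had 74.3 (61.7 to 88.7), 626 (564 to 694) and 38.0 (27.8 to 50.6) peaks per Mb in Csmd1, Csmd2 and Csmd3. Foxp1 had 321 (278 to 370.2) and Foxp2 had 48.1 (31.4 to 70.5). Both encode forkhead repressors that can pair with each other. Nav2 had 569.9 (513 to 631) and Nav3 had 83.9 (64.8 to 107). In each of these families the intervals of the densest gene and its relatives are separate. One family was alike: Cntnap5a, Cntnap5b and Cntnap5c, on 2 chromosomes, had 44.3 (31.7 to 60.4), 43.2 (29.3 to 61.2) and 55.5 (38.9 to 76.8).

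The fold enrichment given by the authors for each peak varied little between genes. Its median was 3.90 in long genes and 3.90 in shorter genes, with means of 4.04 ± 0.978 and 4.01 ± 0.955 (SD over peaks). A −log10 q of 5 was reached by 40.6% of long-gene peaks and 40.8% of those in shorter genes, beside 41.0% of all library 1 peaks. Of the long-gene peaks, 11.3% were in the top fold class of the autosomes, those with a fold at or above the 90th percentile, which held 10.8% of all autosomal peaks. The pileup and the background behind a fold were solved from the deposited fold and p-value. The most frequent background was 2.71 reads, so a pileup of 13 gives a fold of 3.77 and a pileup of 14 gives 4.04. These 2 values were the median fold of 72 and 73 of the 216 genes, and small differences between gene medians are therefore single reads.

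Sparse genes had slightly higher folds than dense genes. In 4 classes of 54 genes, ordered by increasing density, the mean fold was 4.21, 4.19, 4.04 and 3.95, and the share of peaks with a −log10 q of at least 5 was 46.6%, 46.1%, 40.9% and 37.6%. The share in the top fold class was 15.5%, 14.9%, 12.2% and 9.01%. Over the 216 genes, rho between density and mean fold was −0.58, a description over genes of 1 library. The share of peaks called at the genome-wide background moved with it, at 75.1% in the sparsest class and 68.8% in the densest, and its part in the folds was not tested. Among the 164 genes with at least 50 peaks, the highest median fold was 4.58 in A830018L16Rik (mean 4.60 ± 1.19, SD over 57 peaks). Nav3, Cdh12, Lrrc4c, Galntl6 and Gabrg3 followed at 4.31, with means of 4.39 to 4.48. The lowest medians were 3.67 in Slc9a9, a sodium and proton exchanger gene (mean 3.76 ± 0.794 over 74 peaks), and 3.68 in Lpp, which encodes a protein of cell contacts (mean 3.74 ± 0.894 over 72 peaks). Clstn2, Frmd4a, Ptprn2 and Grid1 had 3.77, with means of 3.75 to 3.79. The highest and lowest of these gene means lay about 1 SD of the peaks of a single gene apart.

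The strongest peaks of long genes had folds from 8.62 to 10.2. The highest fold, 10.2, was in the sparse gene Dpp10 at chromosome 1, 123820227 to 123820731, 1025 kb from the start of the gene, on a pileup of 37 reads (26.1 to 51.0). Dlg2 followed with 9.43 at chromosome 7, 90863902 to 90865167, a peak of 1266 bp that lies 388 kb from the start, with a pileup of 34 (23.5 to 47.5). Another 5 peaks each had 33 reads at the summit (22.7 to 46.3), which gives 9.16. These lay in Nav3, in Nrg3, which encodes a neuregulin (189.8 kb from the start), in the axon guidance receptor gene Robo2 (1241 kb), in Sdk1 (972 kb, at the 3′ end) and in Exoc4, a gene of the exocyst (69.7 kb). Rad51b, a recombination gene, had 8.95, and A830018L16Rik and Stpg2 each had 8.62. The intervals of all these pileups overlap. A wide peak of 2651 bp in Fgf12, a partner of ion channels in the role lists, had a fold of 7.002.

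Along the gene body the peaks, pooled over genes, followed a shallow trough. The strand was taken from the promoter table for 169 genes, and each body was divided into 10 equal segments, 5′ to 3′. The first segment had 136 peaks per Mb (130.2 to 142), the fifth had 102 (96.4 to 107), the lowest, and the last had 174 (167 to 181). Relative to the 8 segments between, the first stood at 1.21 (1.15 to 1.27) and the last at 1.54 (1.48 to 1.61). In single genes the first segment exceeded the mean of the 8 middle segments in 107 of 169 genes and the last did so in 117. Both held in 70 of 169, so most single genes did not show the trough. The counts that even scatter would give, and those of shorter genes, were not computed. Folds did not follow the trough: the median fold was between 3.77 and 4.04 in every segment.

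The 5′ and 3′ ends differed in shape. At the 5′ end the density was 1018 per Mb (737 to 1371) in the first 250 bp of the gene and 1041 (757 to 1398) from 250 to 500 bp. It was 710.1 (542 to 914) from 500 to 1000 bp and 391 (302 to 497) from 1 to 2 kb. By 5 to 10 kb it was 131 (108 to 158), close to the 122 (117 to 127) at 100 to 200 kb. Outside the gene the density was 639 (421 to 930) within 250 bp and 112 (67.7 to 176) at 1 to 2 kb, so the rise at the start was narrow, and from 250 to 500 bp it was higher inside than outside, where it was 379 (216 to 615). At the 3′ end there was no such spike: the last 250 bp held 4 peaks, or 94.7 per Mb (25.8 to 242). A broad slope stood in its place, with 241 (199.8 to 287) at 2 to 5 kb from the end, 199 (187 to 212) at 20 to 50 kb and 139 (134 to 145) at 100 to 200 kb. Beyond the 3′ end the density was 189 (153 to 231) at 2 to 5 kb and 174 (165 to 183) at 50 to 100 kb. Taken over 10 kb, the 5′ end had 247 per Mb (224 to 272) and the 3′ end had 227 (204 to 250.5), against 118 (117 to 120.2) in the rest of the body.

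**Figure D4:**
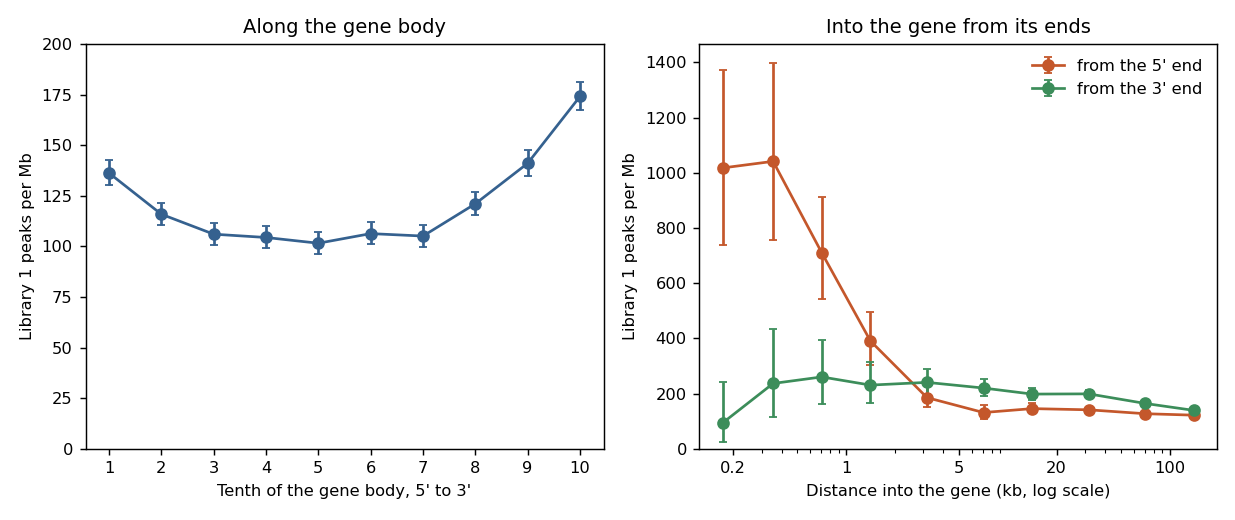
Left, library 1 peaks per Mb in 10 equal segments of the gene body, 5′ to 3′, pooled over 169 genes. Right, peaks per Mb by distance into the gene (kb, log scale) from the 5′ end and from the 3′ end of the same genes. Whiskers are 95% Poisson intervals, the 5′ end reaches 1041 per Mb within 500 bp and the 3′ end stays between 94.7 and 260.4.

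Peaks at the start were not stronger than others. Their median fold was 4.003 within the first 250 bp, 3.77 from 250 to 500 bp and 3.47 from 500 to 1000 bp. At the 3′ end it was 4.58 both from 250 to 500 bp and from 500 to 1000 bp before the end, on 10 and 22 peaks.

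Within single genes the peaks were unevenly spread. The bodies were cut into 1721 whole bins of 100 kb, counted from the lower-coordinate end. A bin held a median of 8 peaks (quartiles 5 and 15, highest 100), and 7 bins in 7 genes held none (Ccser1, Cntn4, Dpp10, Grm7, Kcnip4, Pcdh9 and Tenm3). The variance of the counts between bins of a gene divided by their mean is about 1 under random scatter and lower under even spacing. It was above 1 in 175 of 216 genes, with a median of 1.74. The share of genes that random scatter would put above 1 was not computed. Camta1 was dense throughout, from 52 to 100 peaks per bin, and its bins included the 4 fullest of all. Grid1 fell off along its body, with 78, 45, 32, 17, 11, 6 and 7 peaks in its 7 bins, so that its high density belongs to its lower-coordinate part. Tenm3, which guides the wiring of the visual system, held 38 peaks in its first bin, which is its 3′ end, and none in the last whole bin. Grm7 held at most 5 per bin. In Tenm2 and Tenm3 the segment at the 3′ end held 27.3% and 23.3% of the peaks of the gene, and that at the 5′ end held 3.98% and 3.63%. Ctnna3 and Ryr2, the cardiac calcium release channel gene, showed the opposite slope, with 28.9% and 25.9% in the 5′ segment against 5.42% and 8.24% in the 3′ segment. The genes of this paragraph, other than Camta1, Grid1, Grm7 and Ctnna3, were chosen after their values were seen.

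**Figure D5:**
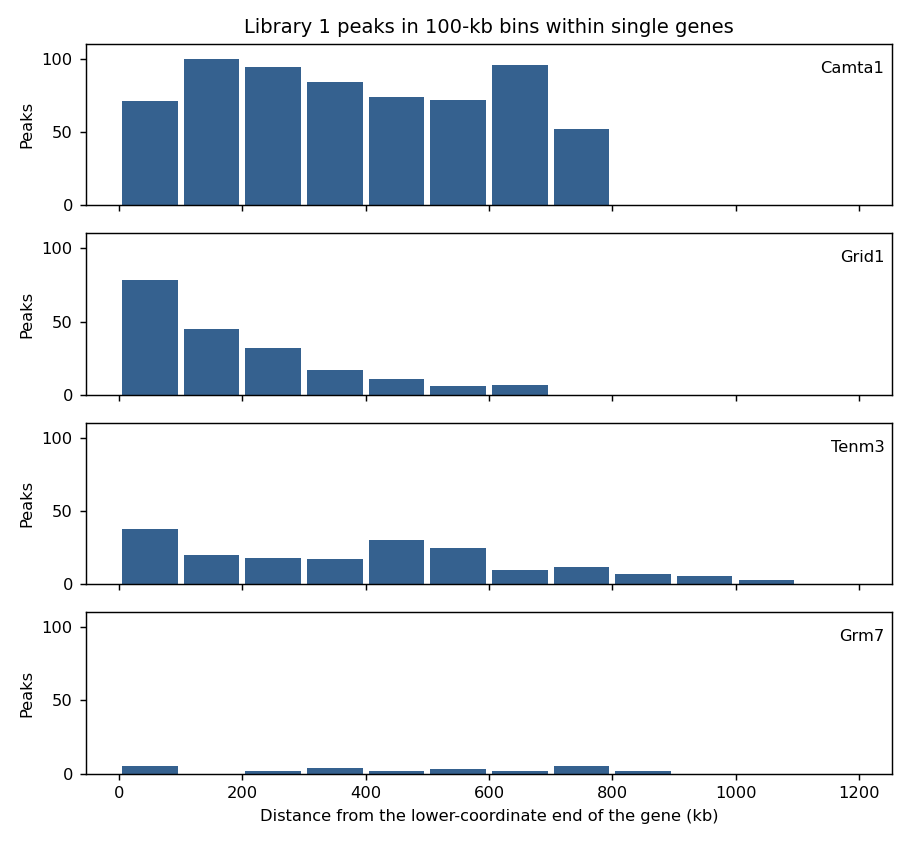
Library 1 peaks in whole 100-kb bins along Camta1, Grid1, Tenm3 and Grm7, by distance in kb from the lower-coordinate end of each gene, on the same vertical scale from 0. Camta1 holds 52 to 100 peaks in every bin, Grid1 runs from 78 to 6, Tenm3 from 38 to 0 and Grm7 from 5 to 0.

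The longest stretch without a summit measured 209.6 kb and lay in Kcnip4, which encodes a subunit of potassium channels, at chromosome 5, 48921047 to 49130634. Ccser1 had a stretch of 169 kb and Tenm3 of 165 kb, the last in a gene with 193 peaks. Assembly gaps and unmappable sequence were not separated from such stretches. Long genes share little of their length with other genes. The 1.69 Mb where a shorter protein-coding gene overlaps a long gene held 220 peaks per Mb (198 to 243), and the other 178 Mb held 123 (122 to 125). On chromosome 18, the predicted genes Gm37013, Gm38666 and Gm38667 share 1 stretch and hence their peaks, with 217 to 222 per Mb each. They are protocadherin fusion genes that stand in no role list. Each overlaps 61 other protein-coding genes, so this stretch is part of the 1.69 Mb, and its share of that was not computed.

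Genes near the length limit also differed among themselves. Just above it, Edil3 (502 kb), Dock1 (503 kb) and Samd12 (503 kb) had 47.8, 330.05 and 53.6 peaks per Mb. Just below it, Dnm3 (496 kb), Lrrc7 (495 kb) and Cacna1e (494 kb) had 141, 42.4 and 186.

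Library 2 held few peaks in these genes. Of its 118 autosomal peaks, 7 had a summit in a long gene (5.93%, 2.42 to 11.8), where long genes make up 7.50% of the autosomes. Among their genes were Hs6st3, which encodes a heparan sulfate sulfotransferase, with a fold of 11.6, Hdac9, a histone deacetylase gene, with 7.97, and Dock2 with 5.23. None of the 7 overlapped a library 1 peak, and of all 118 autosomal library 2 peaks 7 (5.93%) did. Library 1 peaks cover 2.87% of the long genes and 6.18% of the autosomes. The nearest library 1 summit was 168 bp away in Hdac9 and 24.1 kb away in Lrrtm4, where library 1 itself was sparse.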

How the data were processed

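The authors deposited 1 peak list for each of 2 libraries in narrowPeak format. The deposited lists give, per peak, a score derived from the −log10 q, the fold enrichment at the summit as a ratio, the −log10 p and the −log10 q, all made by the authors. Per the submitters' processing notes, bcl2fastq 2.17, Trimmomatic 0.33, Bowtie 1.1.2 and MACS2 2.1.0 were used, with builds hg38 and mm10 named without roles. Settings and controls are not given in the sources used here. Read totals were not used here, so precision rests on the peak counts and pileups.

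Peaks were assigned by summit to RefSeq GRCm38.p6 gene bodies, overlapping bodies being merged for pooled densities. Intervals are exact Poisson (densities), conditional exact (ratios) and Clopper-Pearson (shares), at 95%. Pileup and background were solved from fold and p accepting a mismatch of up to 0.002 in −log10 p, and 100% of peaks were solved. Counting was tested on simulated data. Python 3.11.15, pandas 2.3.3 and SciPy 1.17.1 were used.

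The genes, role lists and rules were chosen with earlier results of these data known. Named genes were the 10 longest, the 6 densest and 6 sparsest, the 6 with the highest and the 6 with the lowest median fold among those with at least 50 peaks (ties ordered by mean fold), those with the 10 strongest peaks, the densest and sparsest of each list, and 3 on each side of the length limit. No comparison between animals or conditions was possible. Results for some single genes that these rules would name are not reported here.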

Additional observations from a re-analysis of the deposited data

How the results depend on the processing

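The peak density of long genes (124 per Mb) depends on which peaks and genes are counted. It was 50.4 with a −log10 q of at least 5, 14.05 in the top fold class, 101 with runs of summits within 1 kb counted as 1 peak, 148 with a length minimum of 400 kb and 103 with 750 kb. The median over genes was 99.6. Without Camta1, an alternative added after seeing the data, it was 121. The ratio to other gene bodies (0.341) stayed below 1 in all 6 alternatives. It was 0.425 against genes of 100 to 500 kb, 0.699 against flanks and 0.506 against the same chromosomes. It was 0.376 in the top fold class, 0.385 without the outer 10 kb and 0.340 with a −log10 q of at least 5. Trimming long genes alone would lower the ratio, because their ends were denser, so 0.385 also reflects a lower density in the genes compared. The first of the 10 segments over the middle (1.21) was 1.14 with a −log10 q of at least 5 and 1.34 with each gene weighted equally. The 5′ end over the rest (2.09) was 3.05 within 5 kb, 1.68 within 20 kb and 1.57 within 10 kb with a −log10 q of at least 5. The cause of these shifts was not tested, beyond fewer peaks under a stricter threshold. The median fold (3.90) was 4.85 with a −log10 q of at least 5, a threshold that removes low folds, and between 3.90 and 4.04 in the other 5 alternatives. The last segment over the middle (1.54) ranged over 1.49 to 1.55, and the 3′ end over the rest (1.92) over 1.82 to 2.05. No replicate could be left out and no paired analysis was possible because the peaks come from 1 library.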
